A study of Mus musculus with 24 samples.

Results

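The genes described here are the complex I genes of mouse mitochondrial DNA, *ND1*, *ND2*, *ND3*, *ND4*, *ND4L*, *ND5* and *ND6*, in *M. gastrocnemius*. They were chosen by gene name, as every non-control probe that the array files name for one of them, and with earlier results of the same contrast known. Each of the 7 genes had 1 probe, printed as 1 spot, among the 55681 non-control probes (34797 gene names) of the array. The Hypox minus Norm values of these genes are therefore given as a description and without a P-value.

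Complex I takes electrons from NADH, passes them to ubiquinone and pumps protons across the mitochondrial inner membrane. Its membrane arm holds the subunits made from mitochondrial DNA, and the rest are made from nuclear genes and imported. Both strands of mitochondrial DNA are transcribed as long precursors that are cut into single RNAs. *ND6* is the complex I gene read from the light-strand transcript, and the other 6 are read from the heavy-strand transcript.

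The mice were C57BL/6JOlaHsd males, 10 weeks old on arrival and kept 1 to a cage. All had received a low-fat diet (10% of energy from fat) for 3 weeks and then a high-fat diet (40%) for 6 weeks, and all were fasted. The 12 Norm mice breathed 20.9% oxygen and the 12 Hypox mice 12% oxygen for 6 h, and each was killed directly afterwards, so that every array is a separate animal after 1 length of exposure. On each of the 24 arrays, Cy5 marked the RNA of 1 mouse and Cy3 a pool made from all of the mice. All values below are log2 ratios of Cy5 over Cy3 after loess normalization within the array, unless another scale is named. In RNA from whole muscle, fewer fibres of a type and less RNA per fibre cannot be told apart.

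The probe sequences are shown because each gene is read by this one stretch of 60 bases. They are written in the sense of the RNA, and the capitals mark gene ends.
ND1: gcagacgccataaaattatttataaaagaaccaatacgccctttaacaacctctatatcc
ND2: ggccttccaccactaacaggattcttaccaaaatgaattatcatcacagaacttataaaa
ND3: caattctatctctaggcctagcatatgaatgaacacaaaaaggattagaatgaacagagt
ND4: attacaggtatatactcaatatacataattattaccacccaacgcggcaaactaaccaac
ND4L: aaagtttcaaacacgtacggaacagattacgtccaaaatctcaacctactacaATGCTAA
ND5: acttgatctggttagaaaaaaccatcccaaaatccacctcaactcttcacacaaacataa
ND6: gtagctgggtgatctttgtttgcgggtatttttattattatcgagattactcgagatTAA

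All 7 probes held at least 1 reading frame without an internal stop in the vertebrate mitochondrial code. The *ND4L* probe ends with the stop codon of *ND4L*, and the capitals also hold the start codon of *ND4*, which overlaps it on the same transcript. The *ND6* probe ends with the stop codon of *ND6*. In the coordinates of the array files (mm9), *ND1* lies at chrM:2898-2957, *ND2* at chrM:4670-4729, *ND4L* at chrM:10114-10173, *ND4* at chrM:11370-11429 and *ND5* at chrM:13402-13461, all on the plus strand, and *ND6* at chrM:13552-13611 on the minus strand. The *ND5* and *ND6* probes are 90 bases apart and read opposite strands. The file places the *ND3* probe on chromosome 1 (chr1:24619613-24619672, minus strand), where the nuclear genome carries a copy of mitochondrial sequence. Whether the *ND3* signal comes from mitochondrial or nuclear transcripts was not tested.

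The probes of the 6 heavy-strand genes were bright, with a mean Cy5 signal between 234 times (*ND1*) and 1011 times (*ND2*) the local background. They were well above background on all 24 arrays in both channels. *ND6* was dim, with a mean Cy5 signal 2.48 times the background, just inside the filter of 2 times. It was well above background in Cy5 on 7 of 12 Norm and 7 of 12 Hypox arrays, and in Cy3 on all 24. All 7 probes passed the filter, together with 14503 probes in all. One reading, *ND1* in Norm replicate 6, was flagged by the scanner software and left out, so that *ND1* had 11 Norm values.

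The arrays lay on 6 slides with 2 Norm and 2 Hypox arrays each. The mean Cy5 signal of an array ranged from 58.3 to 1014, with the dimmest arrays on slide 1 (58.3 to 102) and the brightest on slide 6 (645 to 1014). The mean Cy3 signal ranged from 849 to 1448. Of 12 muscle fibre markers, 12 passed the filter, with a Cy5 signal between 16.6 (*Mylpf*, a fast myosin light chain) and 3892 times the background (*Tnni2*, the fast troponin I).

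Each of the 7 genes had a lower mean in Hypox than in Norm, as did 43.6% of all probes tested. The size ran from 1.17 in *ND4L* to 0.16 in *ND6* on the log2 scale, and the 2 groups overlapped in all 7 genes. *ND3* and *ND6* had the opposite sign (0.075 and 0.036) when the arrays were only centred on their median, without loess. The other differences were then -0.41 for *ND4L*, -0.27 for *ND5*, -0.17 for *ND2*, -0.13 for *ND1* and -0.051 for *ND4*. The median of all probes was 0.24 in that setting, and each of the 7 genes was below it. In limma's moderated test over all probes, 6 of the 7 passed an unadjusted threshold of 0.05 and were lower, against 6.41% of all probes tested, and none was higher, against 7.41% of all probes. After Benjamini-Hochberg adjustment, *ND4L* alone was called lower, against 0.690% of all probes. These shares stand beside counts from the contrast by which the genes were known, and nothing is read from them.

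**Figure D1:**
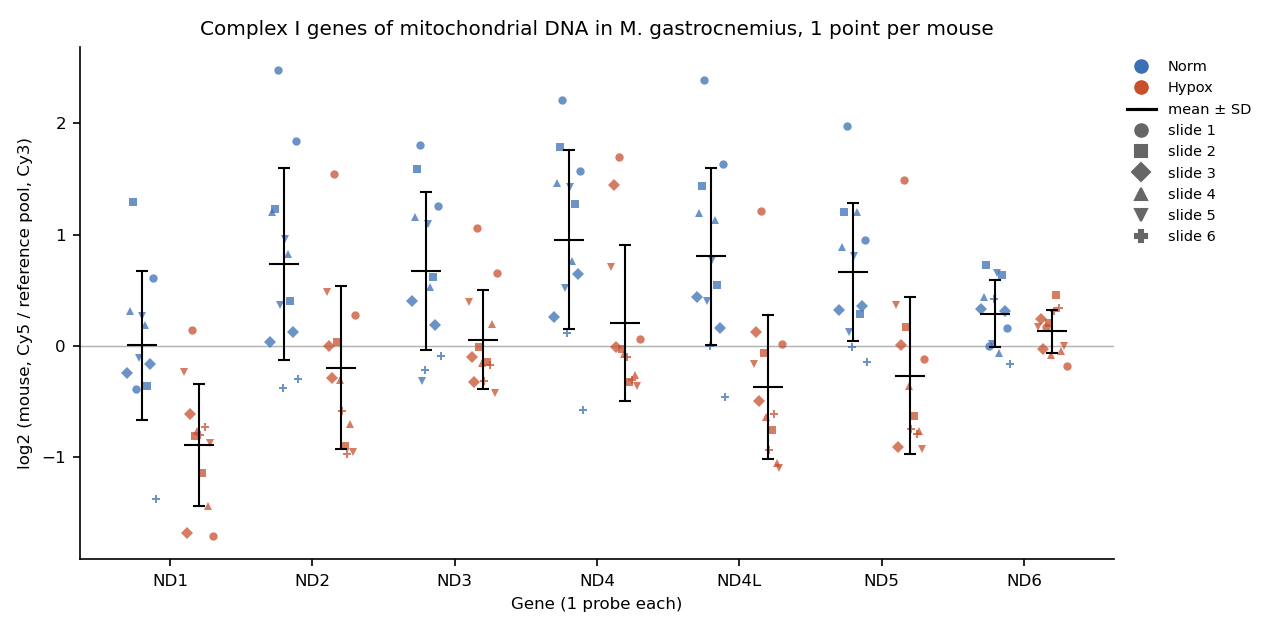
Log2 ratio of mouse over reference pool (y axis) for each gene (x axis) in 12 Norm (blue) and 12 Hypox (orange) mice, with 1 point per mouse, the marker shape giving the slide and the bars the mean ± SD (11 Norm values for *ND1*). Slide 1 holds the highest Norm points of *ND2*, *ND3*, *ND4*, *ND4L* and *ND5*, and the points of *ND6* lie in a narrower range than those of the other genes. The signs of the *ND3* and *ND6* differences turned with median centring.

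*ND1* forms part of the site where ubiquinone is reduced. Its ratio ranged from -1.37 to 1.29 (median -0.11) in Norm mice and, in Hypox mice, from -1.71 to 0.14 (median -0.81). The Hypox mean was lower by 0.89 (SE 0.23; Norm 0.0046 ± 0.67 SD, n = 11; Hypox -0.89 ± 0.55 SD, n = 12). Of the 12 Hypox mice, 11 were below the Norm median and 3 below every Norm mouse. The lowest Norm value was the single *ND1* reading of its group on slide 6.

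*ND3* carries a loop close to the ubiquinone site that is known from the switch between active and deactive enzyme. Its ratio ranged from -0.31 to 1.80 (median 0.58) in Norm mice and, in Hypox mice, from -0.43 to 1.06 (median -0.12). The Hypox mean was lower by 0.61 (SE 0.22; Norm 0.67 ± 0.71 SD, Hypox 0.056 ± 0.44 SD, n = 12 each). This was the least of the 6 heavy-strand differences, and 5 Norm mice lay above every Hypox mouse.

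*ND2*, *ND4* and *ND5* are the 3 large subunits that resemble proton antiporters. The *ND2* ratio ranged from -0.38 to 2.48 (median 0.61) in Norm mice and, in Hypox mice, from -0.97 to 1.55 (median -0.30), with a Hypox mean lower by 0.93 (SE 0.30; Norm 0.73 ± 0.86 SD, Hypox -0.20 ± 0.73 SD, n = 12 each). Of the 12 Hypox mice, 11 were below the Norm median and 5 below every Norm mouse.

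The *ND4* ratio ranged from -0.57 to 2.20 (median 1.02) in Norm mice and, in Hypox mice, from -0.36 to 1.70 (median -0.047). The Hypox mean was lower by 0.75 (SE 0.28; Norm 0.95 ± 0.80 SD, Hypox 0.20 ± 0.70 SD, n = 12 each). *ND4* overlapped most among the heavy-strand genes in one respect, since no Hypox mouse lay below the lowest Norm mouse.

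The *ND5* ratio ranged from -0.14 to 1.97 (median 0.59) in Norm mice and, in Hypox mice, from -0.93 to 1.49 (median -0.49). The Hypox mean was lower by 0.93 (SE 0.25; Norm 0.66 ± 0.62 SD, Hypox -0.27 ± 0.71 SD, n = 12 each). All 12 Norm mice were above the Hypox median, and 7 Hypox mice were below every Norm mouse.

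*ND4L* and *ND6* are small subunits in the membrane arm between *ND1* and the antiporter-like subunits. The *ND4L* ratio ranged from -0.46 to 2.39 (median 0.66) in Norm mice and, in Hypox mice, from -1.10 to 1.21 (median -0.55). The Hypox mean was lower by 1.17 (SE 0.27; Norm 0.80 ± 0.79 SD, Hypox -0.37 ± 0.65 SD, n = 12 each), or 2.26-fold lower. All 12 Norm mice were above the Hypox median, 7 Hypox mice were below every Norm mouse, and the highest Hypox value was on slide 1. The adjusted call of *ND4L* was lost when any 1 of 12 arrays was left out (Norm replicates 1, 2, 3, 5, 7 and 11, Hypox replicates 3, 6, 7, 8, 10 and 11). The difference stayed between -1.32 and -1.03 over all 24 such fits. Its size moved more with the processing, to -0.76 with the Cy5 channel alone, -0.59 in the deposited values and -0.41 with median centring.

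The *ND6* ratio ranged from -0.17 to 0.73 (median 0.32) in Norm mice and, in Hypox mice, from -0.18 to 0.45 (median 0.17). The Hypox mean was lower by 0.16 (SE 0.10; Norm 0.29 ± 0.30 SD, Hypox 0.13 ± 0.19 SD, n = 12 each), which did not pass the unadjusted threshold. The added offset of 50 in the background correction draws the ratios of dim probes together. With an offset of 10 the *ND6* difference was -0.28, and with the processed signals of the scanner software it was -0.42, where *ND3* was at -0.39 and the other 5 genes between -0.80 and -0.61. Those settings also moved the heavy-strand genes, and no test of a difference between *ND6* and the other genes was made.

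The heavy-strand genes also varied widely between arrays of the same group. Slide means were not removed here, so this spread holds slide and array differences as well as those between mice. The SD within groups was between 0.59 (*ND3*) and 0.80 (*ND2*) for the 6 heavy-strand genes and 0.25 for *ND6*, against a median of 0.24 over all probes tested. The 6 heavy-strand genes were above 0.51, the SD that 5% of all probes exceeded. For *ND2*, the raw Cy5 signal ran from 2098 to 92479 over the arrays, a 44.1-fold range, beside a 17.4-fold range of the mean Cy5 signal of whole arrays. Its Cy3 signal, the same pool on every array, ran from 79277 to 173068. For *ND6* the Cy5 signal ran from 33.9 to 167.

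Since each slide held both groups, the difference was also taken within slides. *ND4L* was lower in Hypox on 6 of 6 slides, by 0.49 to 2.00, and on each of them both Hypox mice were below both Norm mice. *ND5* was lower on 6 of 6 slides, by 0.70 to 1.60, *ND2* on 6 of 6, by 0.22 to 1.51, and *ND3* on 6 of 6, by 0.090 to 1.18. *ND1* was lower on 5 of 6, with slide 6 the exception (0.61, from 1 Norm mouse), and *ND4* on 4 of 6, with differences of 0.26 on slide 3 and 0.023 on slide 6. *ND6* was lower on 5 of 6, from -0.35 on slide 2 to 0.20 on slide 6. In all, the Hypox mean was the lower one in 38 of 42 pairs of gene and slide. The genes were read on the same arrays and moved together, so these pairs are not separate observations. The counts by slide come from the contrast by which the genes were known and were not made over all probes. Nothing is read from them.

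**Figure D2:**
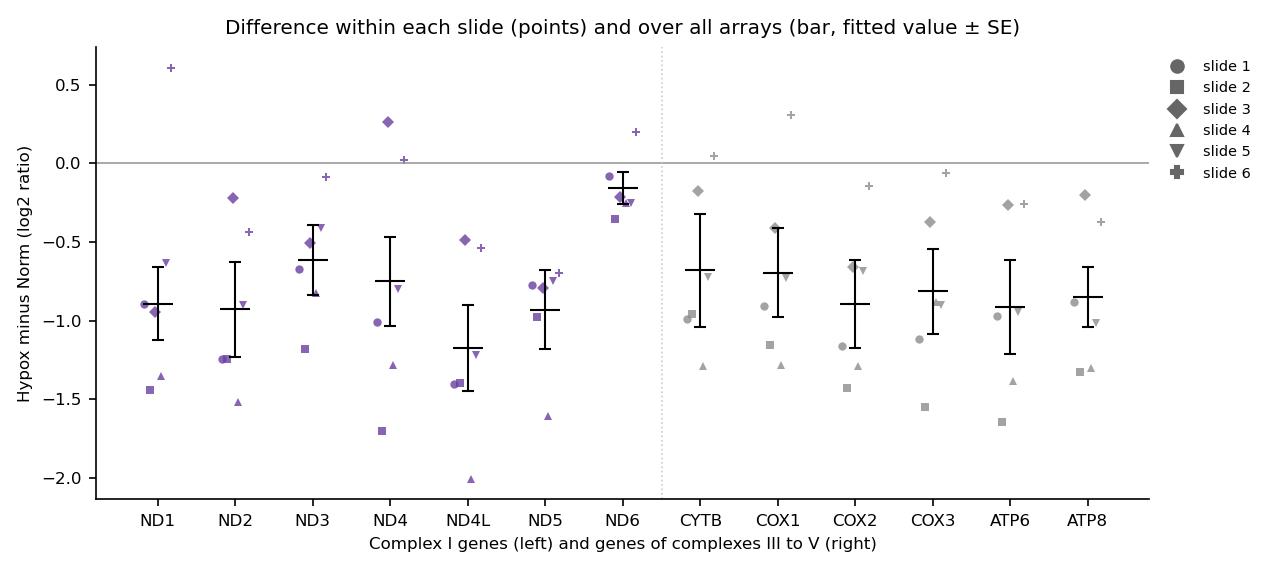
Hypox minus Norm on the log2 ratio scale (y axis) for the 7 complex I genes (purple) and the 6 mitochondrial DNA genes of complexes III to V (grey), with 1 point per slide and the bar for the fitted difference over all arrays ± SE. The *ND4L*, *ND5*, *ND2* and *ND3* points are below 0 on all 6 slides, and slide 6 lies highest for *ND1*, *ND3*, *ND5* and *ND6*. The signs of the *ND3* and *ND6* differences over all arrays turned with median centring.

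The slides themselves were tested with limma's moderated F-test, in a model with group, which the choice of genes had not used. *ND2* (adjusted p = 0.0062), *ND4L* (adjusted p = 0.019) and *ND3* (adjusted p = 0.034) differed between slides, 3 of 7 genes, against 3.21% of all probes tested. *ND5* (adjusted p = 0.14), *ND4* (adjusted p = 0.32), *ND6* (adjusted p = 0.46) and *ND1* (adjusted p = 0.85) did not pass. *ND2* had its highest slide mean on slide 1 (1.53) and its lowest on slide 6 (-0.56), and *ND4L* the same order of extremes (1.31 and -0.50). None of the 7 genes passed this test with an offset of 10 (0.614% of all probes did), with the processed signals (21.4%) or with the Cy5 channel alone (11.1%). With median centring 7 of 7 passed, as did 95.8% of all probes.

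Slides 1 and 6 are the dimmest and the brightest in Cy5, so the ratios were set against the mean Cy5 signal of the array (log2, group means removed, 7 relations, 2-sided permutation tests). This relation was examined after the values were seen. Brightness went largely by slide, and these permutations took no account of the slides. Their p-values are therefore too small, and no gene is called from them. *ND2* was lower on brighter arrays (Pearson r = -0.80, permutation p = 1e-05, the smallest that 100000 permutations can give, adjusted p = 7e-05; Spearman rho = -0.75, permutation p = 7e-05, adjusted p = 0.00049). *ND4L* (r = -0.72, permutation p = 8e-05, adjusted p = 0.00028; rho = -0.61, permutation p = 0.0020, adjusted p = 0.0028) and *ND5* (r = -0.71, permutation p = 0.00016, adjusted p = 0.00037; rho = -0.64, permutation p = 0.0010, adjusted p = 0.0023) had the same direction.

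*ND3* (r = -0.68, permutation p = 0.00046, adjusted p = 0.00080; rho = -0.65, permutation p = 0.00079, adjusted p = 0.0023) and *ND4* (r = -0.58, permutation p = 0.0030, adjusted p = 0.0042; rho = -0.63, permutation p = 0.0014, adjusted p = 0.0024) were also lower on brighter arrays. *ND1* showed no relation that passed (r = -0.25, permutation p = 0.26, adjusted p = 0.26; rho = -0.20, permutation p = 0.35, adjusted p = 0.35), and *ND6* had the opposite sign (r = 0.39, permutation p = 0.059, adjusted p = 0.069; rho = 0.43, permutation p = 0.036, adjusted p = 0.042). Without the 2 arrays of most extreme brightness, r was -0.70 for *ND2*, -0.57 for *ND4L*, -0.54 for *ND5*, -0.53 for *ND3*, -0.38 for *ND4*, -0.19 for *ND1* and 0.38 for *ND6*. With slide means removed as well, r was -0.55 for *ND2*, -0.52 for *ND5* and -0.47 for *ND4L*. It was -0.40 for *ND4*, -0.30 for *ND1*, -0.09 for *ND3* and -0.07 for *ND6*. Permutation tests gave adjusted p = 0.036 for *ND2* and *ND5*, 0.051 for *ND4L*, 0.092 for *ND4*, 0.22 for *ND1* and 0.75 for *ND3* and *ND6*. These tests did not allow for the slide means removed, so their p-values are too small and no gene is called from them.

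**Figure D3:**
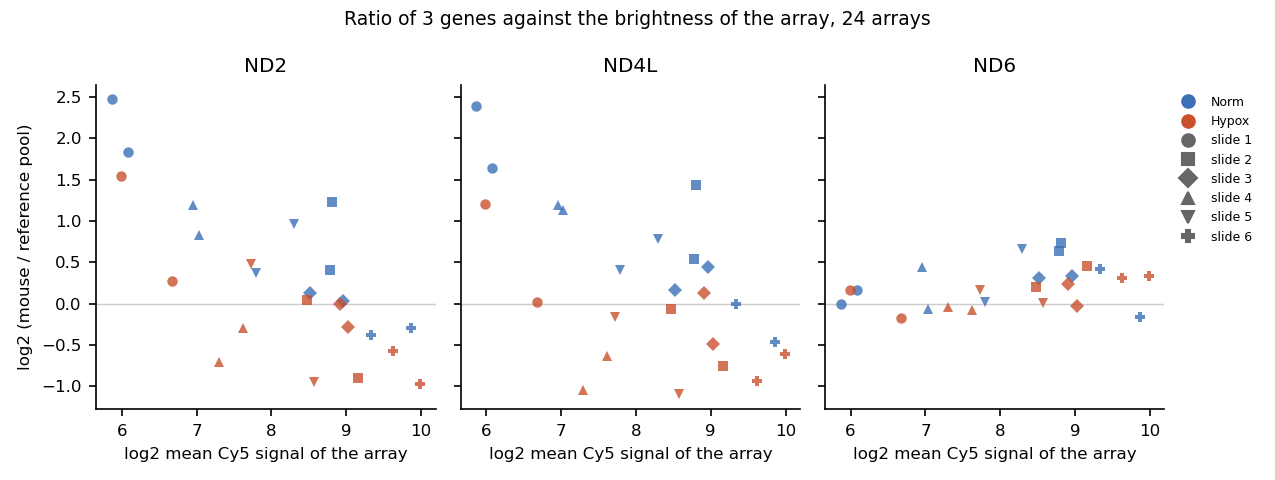
Log2 ratio of *ND2*, *ND4L* and *ND6* (y axis) against the log2 mean Cy5 signal of the array (x axis), 24 arrays, blue for Norm and orange for Hypox, with the marker shape giving the slide. *ND2* and *ND4L* are highest on the dim arrays of slide 1 and lowest towards the bright arrays (r = -0.80 and -0.72 with group means removed). *ND6*, a dim probe, has the opposite sign (r = 0.39, permutation test, adjusted p = 0.069). With slide means removed as well, r was -0.55 for *ND2*, -0.47 for *ND4L* and -0.07 for *ND6*.

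The Hypox arrays were brighter in Cy5 by a small margin (log2 mean 8.25 ± 1.21 SD, against 8.02 ± 1.28 SD in Norm, n = 12 each), and the Hypox mean was the higher one on each of the 6 slides. With the log2 brightness as a covariate, the Hypox minus Norm difference was -1.08 for *ND4L*, -0.85 for *ND1*, -0.84 for *ND5*, -0.81 for *ND2*, -0.67 for *ND4*, -0.54 for *ND3* and -0.18 for *ND6*. Without the 4 arrays of slide 1 the differences were -1.13 for *ND4L*, -0.96 for *ND5*, -0.89 for *ND1*, -0.86 for *ND2*, -0.70 for *ND4*, -0.60 for *ND3* and -0.17 for *ND6*. In both fits the same 6 genes passed the unadjusted threshold.

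How far the genes moved together among arrays of the same group was tested over all 21 pairs, with group means removed. The permutations took no account of the slides, so their p-values are too small and no pair is called from them. The 10 pairs among *ND2*, *ND3*, *ND4*, *ND4L* and *ND5* had Pearson r between 0.71 and 0.95 and Spearman rho between 0.72 and 0.93. In 10 of 10, by either measure, the adjusted p was at most 0.00027 (permutation p from 1e-05 to 0.00013). The highest was *ND2* with *ND4L*, 2 genes whose probes lie apart on the heavy-strand transcript (r = 0.95, rho = 0.90). Without the 2 arrays farthest from the median of the first gene, r of these 10 pairs was between 0.51 and 0.91. With slide means removed as well, r was between 0.51 and 0.90 (permutation test, adjusted p at most 0.015). That test did not allow for the slide means removed, so its p-values are too small and no pair is called from them.

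The 5 pairs of *ND1* with these genes had r between 0.45 and 0.58 (permutation tests, adjusted p from 0.0066 to 0.043) and rho between 0.30 and 0.59, of which 1, with *ND5*, passed (adjusted p = 0.0065). Without the 2 arrays farthest from the *ND1* median, r was between 0.22 and 0.53, so that the lower of these relations rested on those arrays. With slide means removed as well, r was between 0.48 and 0.65, and no pair is called from the permutation test there, whose p-values are again too small.

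*ND6* had r between -0.06 (*ND2*) and 0.43 (*ND1*) with the other genes, and 0 of 6 pairs passed after adjustment (adjusted p from 0.050 to 0.87, permutation test; 1 pair, with *ND1*, had an unadjusted permutation p of 0.038). With slide means removed as well, r was 0.65 with *ND4*, 0.64 with *ND3*, 0.53 with *ND1* and 0.43 with *ND4L*. It was 0.37 with *ND2* and 0.22 with *ND5*, whose probe lies nearest to that of *ND6*. Permutation tests gave adjusted p = 0.0017 for *ND4* and *ND3*, 0.013 for *ND1*, 0.038 for *ND4L*, 0.082 for *ND2* and 0.31 for *ND5*. These tests did not allow for the slide means removed, so their p-values are too small and no pair is called from them. The r of *ND6* with the other genes thus differed in size with and without the slide means, and *ND6* was read from a dim probe. All probes share the array, and the part of array brightness in these correlations was not tested.

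**Figure D4:**
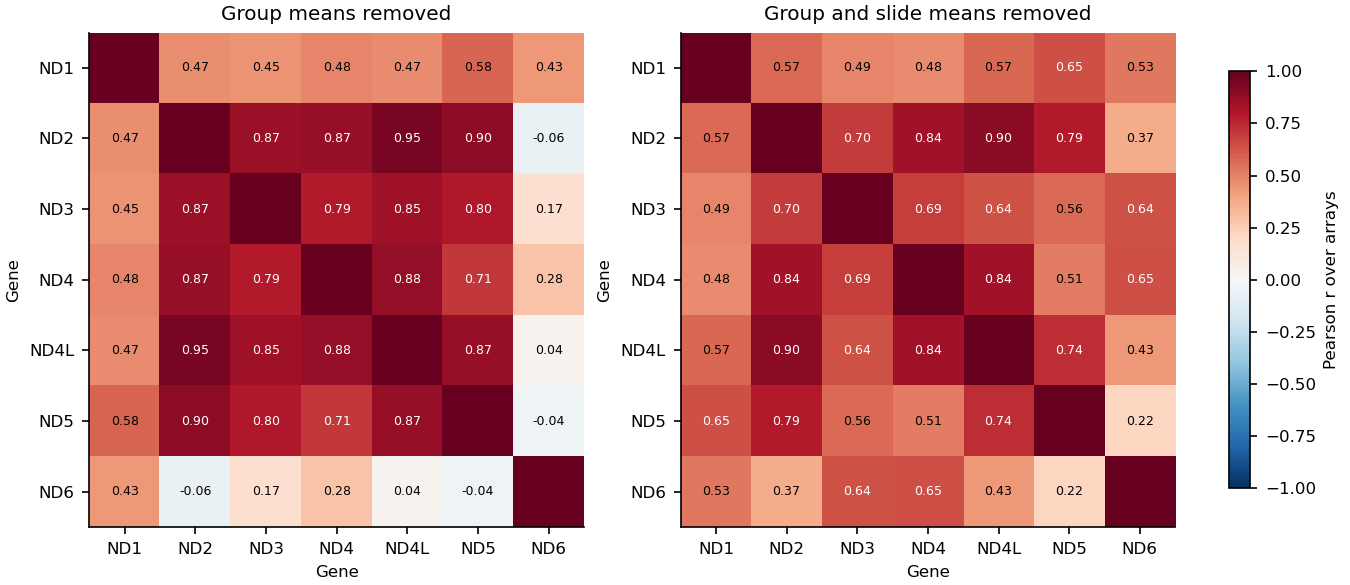
Pearson r between each pair of the 7 genes over the arrays (colour and printed value), with group means removed (left) and with group and slide means removed (right). The block from *ND2* to *ND5* is above 0.70 on the left, and the *ND6* row, between -0.06 and 0.43 on the left, runs from 0.22 to 0.65 on the right.

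Among all named probes that are not complex I genes of mitochondrial DNA, those most like *ND2* over the 24 arrays (Pearson r with group means removed, as a description) were the mitochondrial DNA genes *ATP6* (r = 0.97) and *CYTB* (r = 0.95), *COX2* (r = 0.94) and *COX3* (r = 0.93), and then *Rn28s1*, the nuclear 28S ribosomal RNA (r = 0.90). *ATP8* (r = 0.89) and *COX1* (r = 0.88) also stood among the 10 most like it. Those most like *ND6* were the nuclear genes *Camsap3* (r = 0.79), *Nf1* (r = 0.78), *Mrps18c* (r = 0.78), *Eloc* (r = 0.78) and *Prg4* (r = 0.78). The mitochondrial DNA genes of complexes III to V had r between -0.12 (*CYTB*) and 0.12 (*ATP8*) with *ND6*.

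The 6 mitochondrial DNA genes of the other complexes, all read from the heavy-strand transcript, had Hypox minus Norm differences in the range of the heavy-strand complex I genes. *ATP6* and *ATP8*, of the ATP synthase, were at -0.91 (SE 0.30) and -0.85 (SE 0.19), and *COX2*, *COX3* and *COX1*, of cytochrome c oxidase, at -0.90 (SE 0.28), -0.81 (SE 0.27) and -0.70 (SE 0.28). *CYTB*, of complex III, was at -0.68 (SE 0.36). Of the 6, 5 were called lower at unadjusted 0.05 (all probes 6.41%) and 1, *ATP8*, after adjustment (all probes 0.690%). No test of a difference between these genes and those of complex I was made.

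Most subunits of complex I come from the nucleus. Of 36 of them tested, 3 were called higher and 3 lower at unadjusted 0.05, near the shares of all probes (7.41% higher and 6.41% lower), 0 passed after adjustment in limma's test, and the median difference was -0.066, against 0.022 over all probes. *Ndufa1* (-0.51, SE 0.20), *Ndufb11* (-0.41, SE 0.17) and *Ndufc2* (-0.38, SE 0.16), accessory subunits of the membrane arm, were lower. *Ndufb6* (0.45, SE 0.14), also of the membrane arm, *Ndufa10* (0.39, SE 0.16), an accessory subunit, and *Ndufs8* (0.27, SE 0.11), an iron-sulphur subunit, were higher. The median of the list was 0.51 with median centring and 0.34 in the deposited values (median of all probes 0.24 and 0.074), so that its sign depended on the scaling.

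Of 16 complex I assembly factors tested, 4 were called higher (all probes 7.41%) and 0 lower (all probes 6.41%), 0 after adjustment (median 0.12). The count was 2 without Hypox replicate 2, 6, 7 or 9, 2 without slide 1 and 1 with the Cy5 channel alone. They were *Ndufaf6* (0.33, SE 0.14), *Ndufaf2* (0.27, SE 0.12) and *Foxred1* (0.21, SE 0.10), which help to build the complex, and *Tmem70* (0.19, SE 0.083), known mainly from the assembly of the ATP synthase.

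Of 16 factors for upkeep and transcription of mitochondrial DNA, 1 was called higher, *Rnaseh1* (0.17, SE 0.077), which removes RNA paired with DNA, and 0 lower (median 0.10). Of 18 factors for processing and stability of mitochondrial RNA, 2 were called higher, *Angel2* (0.14, SE 0.067) and *Rexo2* (0.12, SE 0.052), an exonuclease for short RNA, and 0 lower (median 0.068). Over all probes 7.41% were called higher, a share near that of both lists. With 1 array left out the counts ran from 0 (each of Norm replicates 3, 5, 6 and 10 and Hypox replicate 12) to 2 and from 1 (each of Norm replicates 6, 8 and 9 and Hypox replicates 7, 8 and 10) to 3. None of these 3 genes passed after adjustment. With the deposited values none of the factors for upkeep, transcription, processing or stability passed the unadjusted threshold.

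Fibre and tissue markers were set beside the complex I genes. Over all probes, 7.41% were called higher and 6.41% lower at unadjusted 0.05, and 43.6% were lower in value. Of 12 muscle fibre markers, 1 was called higher, *Mylpf* (0.36, SE 0.10), and 0 lower (median -0.17). Of 9 slow fibre markers, 9 were higher in value and 3 called so, *Tnni1* (0.61, SE 0.17), *Tnnc1* (0.44, SE 0.18) and *Casq2* (0.27, SE 0.10), with a median of 0.34. Their mean ratio per array ran from -1.91 to 0.54 in Norm mice and, in Hypox mice, from -0.18 to 0.15.

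Of 5 adipocyte markers tested, 2 were called lower, *Cfd* (-0.56, SE 0.23) and *Adipoq* (-0.33, SE 0.15), and 1 higher, *Cidea* (0.35, SE 0.11), with a mean ratio per array from -0.82 to 1.03 in Norm mice and, in Hypox mice, from -0.59 to 0.0036. Of 6 peripheral nerve markers, 2 were called lower, *Pmp22* (-0.41, SE 0.19) and *Prx* (-0.28, SE 0.12), from -0.30 to 0.46 in Norm mice and, in Hypox mice, from -0.51 to 0.17. Of 5 endothelial markers, 2 were called higher, *Cdh5* (0.38, SE 0.13) and *Cldn5* (0.30, SE 0.10), from -0.37 to 0.21 and from -0.23 to 0.024. Of 2 lung markers past the filter, *Sftpc* was called higher (0.81, SE 0.32), and of 4 red blood cell markers 0 were called. None of these markers passed after adjustment, and their part in the differences of the complex I genes was not tested. The shares of all probes called were 7.41% higher and 6.41% lower.

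In the log2 values that the authors deposited, the 7 genes were also lower in Hypox, but by less than the spread, and 0 of 7 passed unadjusted 0.05 in limma's test. The deposited *ND4L* mean was 14.4 ± 1.06 (SD) in Norm and 13.8 ± 0.75 in Hypox (n = 12 each), and that of *ND3* was 13.6 ± 1.18 and 13.5 ± 0.73. The differences were -0.59 for *ND4L*, -0.46 for *ND5*, -0.43 for *ND1*, -0.36 for *ND2*, -0.23 for *ND4*, -0.21 for *ND6* and -0.10 for *ND3*. Over the arrays, the deposited values of the 6 heavy-strand genes followed their own raw log2 Cy5 signal (Pearson r between 0.87 and 0.93, as a description), and those of *ND6* did not (r = -0.17). The deposited values and the loess ratios did not order the mice alike, with r between them of -0.36 for *ND2*, -0.28 for *ND3*, -0.16 for *ND4L*, -0.13 for *ND5*, -0.041 for *ND4*, 0.33 for *ND1* and 0.41 for *ND6*. With the log2 brightness of the array as a covariate, *ND1*, *ND2*, *ND4L* and *ND5* passed the unadjusted threshold in the deposited values, with differences between -0.73 and -0.49.

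**Figure D5:**
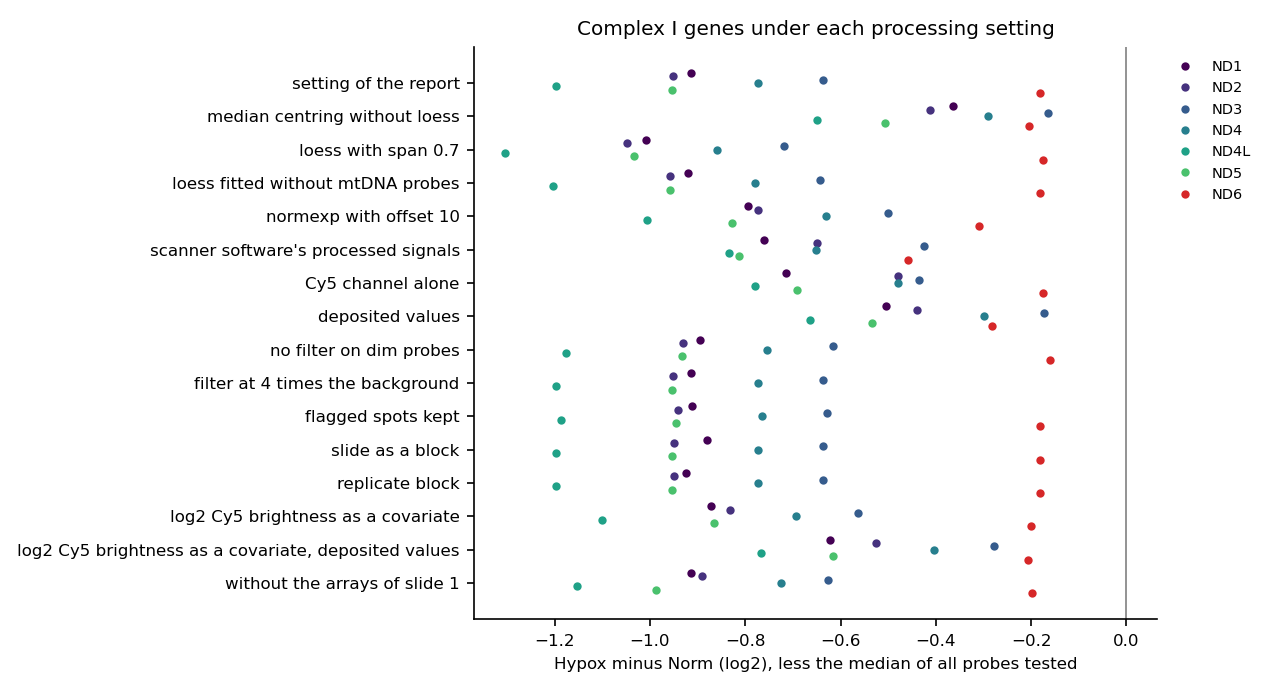
Hypox minus Norm of the 7 genes on the log2 scale, less the median of all probes tested (x axis), under each processing setting (y axis), with 1 point per gene. Relative to that median every point is below 0, from -1.30 for *ND4L* to -0.16 for *ND3* and *ND6*. Not taken relative to it, *ND3* and *ND6* were above 0 with median centring.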

How the data were processed

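The genes and lists were chosen with earlier results of these data known. The authors deposited scanner intensity per spot (Agilent Feature Extraction 10.7.3.1, per the labels and file headers) and a table of normalized log2 values for 21335 spots, with a median of 6.58 in every column. The scaling of that table and its use of Cy3 are not given in the sources used here. Cy5 was read as the mouse and Cy3 as the pool, following the descriptions, because the label field of Hypox replicates 5 to 9 gives dyes such as Cy6.

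Of the readings, 7260 were flagged and dropped along with control spots, and 0 were saturated. Mean signals were corrected with normexp (offset 50) and ratios normalized by loess (span 0.3). Ratios of repeated spots were averaged per probe. Probes with a mean Cy5 signal over 2 times the background and at most 4 missing arrays were kept. Norm and Hypox were compared with limma's moderated test (R 4.3.3, limma 3.58.1) and Benjamini-Hochberg adjustment over 14503 probes, checked on simulated data. The number of arrays limits the precision.

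List genes were matched by RefSeq accession (27235 probes), symbol (3581) or synonym (565). The brightest probe stood for its gene. One gene of a marker list is not reported here and was left out of its list. Every complex I gene of mitochondrial DNA is named, with up to 3 extreme genes per list, *Tmem70* (named after its values were seen) and the 5 probes most like *ND2* and *ND6*. Correlations used 100000 permutations. Slides were numbered 1 to 6. The alternatives were other normalizations, filters and blocks, the deposited values, the methods' t-test and leaving out each array. Array brightness as a covariate and leaving out slide 1 were added after seeing the data.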

Additional observations from a re-analysis of the deposited data

How the results depend on the processing

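The 6 genes past the unadjusted threshold passed under every setting tried, each array left out included (6 to 6), except with median centring (0), the deposited values (0) and the methods' t-test on the deposited values (0), and with 4 in the deposited values with brightness as a covariate. *ND3* turned to 0.075 with median centring. After adjustment, 5 genes passed with the processed signals, 3 with an offset of 10, with the slide as a block and with brightness as a covariate, 2 with the Cy5 channel alone, a filter at 4 times the background and without slide 1, and 0 with a span of 0.7, with no filter, with the methods' t-test on these ratios, in the deposited values and with median centring. Leaving out each array gave 0 to 4. The replicate numbers do not pair the mice (correlation of deviations from -0.20 to 0.41, 3 of 12 pairs over 0.1), and the replicate block gave 6 genes unadjusted and 2 adjusted, and 50 probes in all past adjustment against 135. The genes of the 5 mitochondrial lists past unadjusted 0.05 numbered 18, with 0 under median centring, 4 in the deposited values and 15 to 22 when leaving out each array. The slide test called 3 genes, with 7 under median centring and 0 with an offset of 10, with the processed signals and with the Cy5 channel alone. Of the 21 pairs, 15 had an adjusted p below 0.05 for Pearson r (permutation test), with 10 to 21 under the settings run for it. For Spearman rho these were the 10 pairs among *ND2* to *ND5* with *ND4L*, 1 pair of *ND1* and 0 of *ND6*. The permutations took no account of the slides, so no pair is called from these counts. Over all probes, 2005 passed unadjusted 0.05, with 59 under median centring (96.6% of them higher, against 53.6%), 914 in the deposited values, 951 with the methods' t-test on them and 4487 with no filter. The adjusted count of 135 was 247 with the processed signals, 68 with the Cy5 channel alone, 45 with no filter, 85 with the methods' t-test, 1 or 0 in the deposited values, 0 under median centring and 41 to 233 when leaving out each array. *ND6* could not be compared at 4 times the background, where its probe is left out, and its dim signal limits what its ratio can show.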
